A study of Mus musculus with 8 samples.

Results

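The genes described here each had a probe that was detected in Ebf1-deficient progenitors carrying an empty vector. On almost every array with a supplied EBF1 cDNA, that probe was not detected. Members were chosen by the detection flags of the arrays: a gene was taken if it had a probe that the scanner software called well above background on both Empty arrays and on at most 1 of the 6 arrays with EBF1. The flag is the software's own call that a spot stood clear of its local background, and it is called detection below. Unless another probe is named, the detection and signal of a member are those of this probe, called the member probe. In all, 143 probes passed, 120 of them carried a gene symbol, and these stood for 117 genes. Interleukins, collagens and other large named families were left out, which removed Il20ra, Ccr4, Ccr1l1 and Il1rl1 and left 113 of the 21019 named genes on the array. Of those 21019 genes, 12762 had a probe detected on both Empty arrays. The reverse pattern, detection on neither Empty array and on at least 5 of the 6 arrays with EBF1, was found for 216 genes. Because the flags chose the members, their lower signal with EBF1 is a description and not a finding. For 40 of the 113 genes, another probe was detected on all 8 arrays.

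All 8 arrays came from c-Kit+ fetal liver cells of Ebf1-/- mice on a C57Bl/6 background, grown on OP9 feeder cells with IL-7 at 5 ng/ml and with Flt3 ligand and SCF at 10 ng/ml each. Transduction was with a pMys retrovirus that expressed GFP from an IRES together with EBF1-H240A (Ebf1-H240A, 3 arrays), with wild-type EBF1 (Ebf1wt, 3 arrays) or with no cDNA (Empty, 2 arrays). RNA was taken from GFP+ cells sorted 36 h after transduction. The endogenous Ebf1 gene was therefore disrupted in every group, and the groups differed in the supplied cDNA, which a viral vector drives. The labels do not say whether replicates were separate cultures or animals, so the spread between them may be technical.

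EBF1 is a transcription factor that commits lymphoid progenitors to the B lineage. It opens and activates B-cell genes such as those of the pre-B cell receptor, and it restrains genes of other lineages. Progenitors that lack it stop before the pro-B stage and keep a broad potential, with low transcription of genes that belong to other blood cells. EBF proteins bind a palindrome with the core CCCNNGGG.

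A single named gene can be read by several probes of 60 bases, and the results below turn on which probe is read. The first 30 bases of 6 probes are shown, in the 5′ to 3′ order of the array files (mm9). Casq2 and Ampd1 have 1 probe each and gave wide gaps between the groups. For Strip2 and Cdca8 the member probe is followed by the gene's brightest probe that was detected on all 8 arrays.
Casq2 member probe, chr3:101949827-101949884, plus strand: actcagacccaagcctttggatgtcaatta
Ampd1 member probe, chr3:102902649-102902708, plus strand: gctgagtaacaacagtctgttcctcgaata
Strip2 member probe, chr6:29907359-29907418, plus strand: aatgcctgggacgtatcatttagcaaaacc
Strip2 other probe, chr6:29909511-29909570, plus strand: gattaaccagcatttaatggtgattacagt
Cdca8 member probe, chr4:124601152-124601211, minus strand: taagatgtatgaatgattccagtggaaata
Cdca8 other probe, chr4:124595809-124595868, minus strand: tctcctattctgttgtcatttgtgccctct
The paired probes of Strip2 and of Cdca8 lie apart in their gene and share no position. Whether both probes of a pair lie in exons of the same transcript was not looked up. A further Cdca8 probe is placed across chr4:124601052-124603943, an interval that holds the position of the member probe.

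Signals are given as log2 of the processed intensity after every array was scaled to the same 75th percentile. The members were dim. Over the 113 genes, the mean of the Ebf1-H240A arrays ran from 0.32 to 2.91 with a median of 2.01, and that of the Ebf1wt arrays from 0.55 to 3.31 with a median of 2.10. The mean of the Empty arrays ran from 2.73 to 5.07 with a median of 3.43, while the probes detected on both Empty arrays had a median of 7.81 on each. On the linear scale the members' Empty means came to 6.61 to 33.5 intensity units. In bulk RNA of this kind, fewer cells that express a gene and less RNA per cell cannot be told apart.

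**Figure D1:**
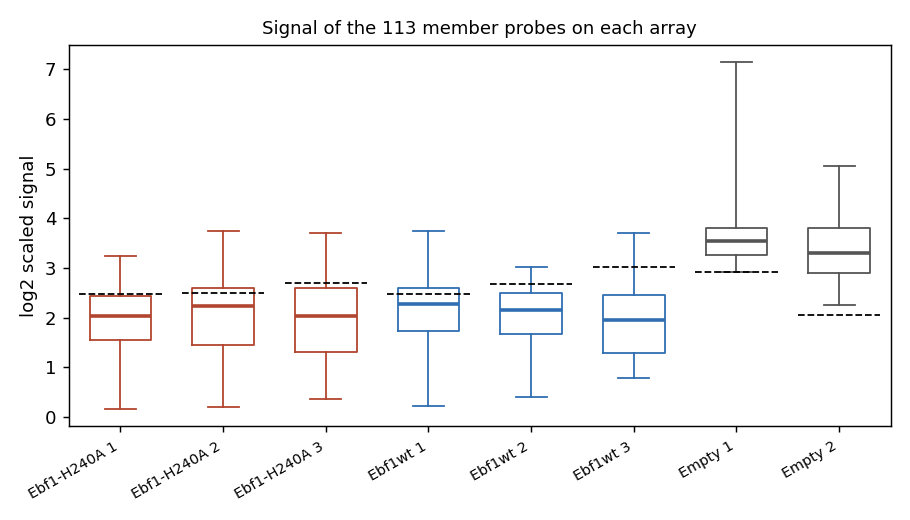
Log2 scaled signal of the 113 member probes (y axis) on each of the 8 arrays (x axis). Boxes give the quartiles, the thick line the median and whiskers the lowest and highest member, and each dashed line is the lowest signal of any probe called well above background on that array. Member medians lie at 2.03, 2.23 and 2.03 on the Ebf1-H240A arrays and at 2.27, 2.15 and 1.95 on the Ebf1wt arrays, against 3.55 and 3.30 on the Empty arrays.

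Of the 113 member probes, 58 were detected on none of the 6 arrays with EBF1 and 55 on exactly 1. The single detection was on an Ebf1-H240A array for 32 genes and on an Ebf1wt array for 23. It fell on Ebf1-H240A replicate 2 and on Ebf1wt replicate 1 for 18 genes each, on Ebf1-H240A replicate 1 for 11, on Ebf1wt replicate 2 for 4, on Ebf1-H240A replicate 3 for 3 and on Ebf1wt replicate 3 for 1. The lowest signal that still counted as detected differed between arrays, as the dashed lines in the plot of member signal by array show. It was 2.47, 2.50 and 2.70 on the Ebf1-H240A arrays, 2.47, 2.68 and 3.03 on the Ebf1wt arrays, and 2.91 and 2.06 on the Empty arrays. The arrays with EBF1 that needed the least signal were thus those with most of the single detections.

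All 113 genes had a lower mean with either form of EBF1 than with the empty vector. For 91 of them every EBF1 array lay below both Empty arrays, and for 22 the arrays overlapped. The same separation held for 28.4% of the probes kept for testing. In the limma fit over 24981 probes, 69 members were called lower in Ebf1-H240A than in Empty, where 22.3% of all probes were, and 67 in Ebf1wt than in Empty, where 20.2% were (Benjamini-Hochberg adjusted p under 0.05). Median log2 differences were -1.44 for Ebf1-H240A and -1.29 for Ebf1wt, beside -0.02 and -0.05 over all probes tested. Since the flags used these contrasts, nothing is read from the counts. For probes below background these are differences between measured signals and not folds. Within slide 1 the members' median differences were -1.56 and -1.41, and within slide 2 -1.42 and -1.25, for Ebf1-H240A and Ebf1wt in that order. With normexp background correction in place of the processed signal, only Casq2, Ampd1 and Megf10 were called lower in either. Of all 24981 probes, 3674 were called lower in Ebf1-H240A and 3182 in Ebf1wt with that correction. Without Empty replicate 1 the medians were -1.28 for Ebf1-H240A and -1.17 for Ebf1wt, and without Empty replicate 2 they were -1.55 and -1.44. These fits and those within a slide had 1 Empty array each, so their calls are not counted.

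Loss of detection was not loss of all signal. A weaker flag asks only that a spot be positive and significantly above its background, and all 113 members carried it on both Empty arrays. On all 6 arrays with EBF1 it was still set for 77 of them, on 1 to 5 of the arrays for 35, and on none for Kcnmb1 alone. At the edge of the detection rule lay Sult5a1, Olfr847 and Wars2, the members whose Empty signal stood least above the lowest detected one. Wars2, a mitochondrial tryptophanyl-tRNA synthetase, had 2.96, 2.24 and 2.46 on the Ebf1-H240A arrays and 2.61, 2.44 and 2.21 on the Ebf1wt arrays, against 3.11 and 2.41 on the Empty arrays, and its groups overlapped. Just outside, with detection on 2 of the 6 arrays, were 1500009L16Rik, Dnah8 and Krt8. Krt8, an epithelial keratin, had 3.40, 3.58 and 2.77 on the Ebf1-H240A arrays and 2.95, 3.03 and 3.50 on the Ebf1wt arrays, against 4.92 and 4.78 on the Empty arrays. It did not overlap between the groups.

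Genes of muscle and calcium handling made up 7 members. Their member probes were detected on none of the 6 arrays with EBF1, and none overlapped between the groups. Another probe of Calm4 was detected on every array with EBF1, and another of Neb on Ebf1-H240A replicate 1. Casq2 encodes calsequestrin 2, which stores calcium in the sarcoplasmic reticulum of the heart. It had 2.16, 1.76 and 1.47 on the Ebf1-H240A arrays and 2.31, 1.95 and 1.60 on the Ebf1wt arrays, against 5.14 and 4.99 on the Empty arrays. Where a probe was not well above background in a group, only a bound of the fold is available, formed with the lowest detected signal of each array. On that basis Casq2 was at least 5.68-fold lower in Ebf1-H240A and at least 5.05-fold lower in Ebf1wt than in Empty. Ampd1, the AMP deaminase of skeletal muscle, had 0.54, 1.44 and 1.35 on the Ebf1-H240A arrays and 2.20, 1.72 and 1.28 on the Ebf1wt arrays, against 4.97 and 5.05 on the Empty arrays. Its bounds were at least 5.47-fold lower and at least 4.87-fold lower than in Empty, for Ebf1-H240A and Ebf1wt in that order. Megf10, a receptor that regulates the proliferation of muscle satellite cells, had 0.85, 1.00 and 1.40 on the Ebf1-H240A arrays and 2.32, 1.75 and 2.26 on the Ebf1wt arrays, against 4.86 and 4.77 on the Empty arrays.

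The other 4 muscle and calcium genes had lower Empty signals. Neb, the giant thin-filament protein nebulin, had 1.06, 1.67 and 0.60 on the Ebf1-H240A arrays and 1.42, 0.42 and 1.46 on the Ebf1wt arrays, against 4.16 and 4.17 on the Empty arrays. Kcnmb1, the beta subunit of a calcium-activated potassium channel of smooth muscle, had 0.23, 0.26 and 0.47 on the Ebf1-H240A arrays and 0.26, 0.42 and 0.98 on the Ebf1wt arrays, against 3.41 and 3.82 on the Empty arrays. The EBF1 arrays of Kcnmb1 lay near 0 on this scale, the value given to a scaled intensity of 1 or less. Unc45b, a myosin chaperone, came closest to overlap, with Empty values of 2.92 and 2.69 and a highest EBF1 value of 2.29. For Calm4, a calmodulin-like gene, the EBF1 arrays lay between 0.76 and 1.70 and the Empty arrays at 4.01 and 4.19.

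**Figure D2:**
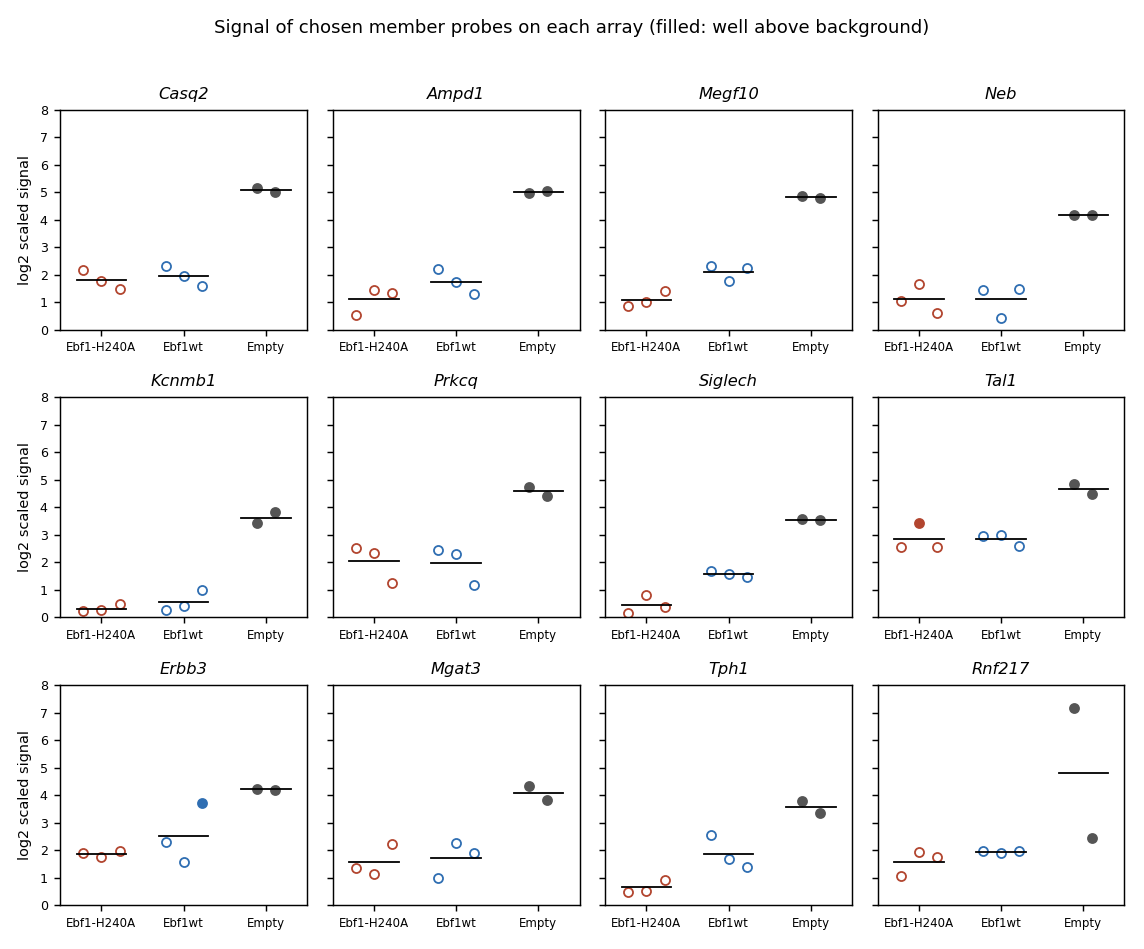
Log2 scaled signal (y axis) of 12 member probes in the 3 groups (x axis), a point per array and a line at each group mean, with filled points where the probe was called well above background. The EBF1 arrays lie below both Empty arrays in all 12 panels, and Rnf217 reads 7.15 on Empty replicate 1 and 2.46 on Empty replicate 2.

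Casq2 and Ampd1 both lie on chromosome 3 (mm9), with 952.765 kb between their probes.

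Members that encode transcription factors numbered 8, all without overlap between the groups, as held for 91 of all 113 members. Of the 8 member probes, 3 were detected on none of the arrays with EBF1. Tal1 directs blood stem cell and erythroid programmes. It had 2.56, 3.42 and 2.54 on the Ebf1-H240A arrays and 2.97, 3.01 and 2.58 on the Ebf1wt arrays, against 4.85 and 4.49 on the Empty arrays, and Ebf1-H240A replicate 2 was its single detection. The Tal1 bound was at least 3.17-fold lower in Ebf1wt than in Empty. Bhlhe41, a repressor of clock genes, had 1.68, 2.58 and 1.62 on the Ebf1-H240A arrays and 2.08, 2.30 and 1.54 on the Ebf1wt arrays, against 4.02 and 3.23 on the Empty arrays. Its Empty arrays differed from each other by more than Empty replicate 2 differed from the highest EBF1 array.

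The remaining factors were Sp7, needed for bone-forming cells, Foxn1, the master regulator of thymic epithelium, Sox6, which acts in cartilage and red cells, the Ikaros-family member Ikzf4, the Wnt effector Tcf7l1 and the cell-cycle regulator Lin54. Sp7 had 2.05, 3.26 and 2.73 on the Ebf1-H240A arrays and 2.75, 2.70 and 3.61 on the Ebf1wt arrays, against 3.73 and 4.64 on the Empty arrays. The highest Ebf1wt array thus lay just under the lower Empty array. Over the 8 factors the median of the group means was 1.93 in Ebf1-H240A, 2.16 in Ebf1wt and 3.54 in Empty.

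Blood and lymphoid cell genes made up another 8 members, of which 7 did not overlap between groups. Prkcq encodes the protein kinase C of T cell receptor signalling. It had 2.53, 2.34 and 1.26 on the Ebf1-H240A arrays and 2.44, 2.30 and 1.16 on the Ebf1wt arrays, against 4.75 and 4.42 on the Empty arrays. This was at least 4.02-fold lower in Ebf1-H240A and at least 3.62-fold lower in Ebf1wt than in Empty. Siglech, a lectin of plasmacytoid dendritic cells, had 0.16, 0.82 and 0.37 on the Ebf1-H240A arrays and 1.70, 1.58 and 1.47 on the Ebf1wt arrays, against 3.57 and 3.54 on the Empty arrays. Its 3 groups did not overlap, but no array with EBF1 was well above background, so the gap between the forms carries no fold. With values under 4 set to 4, the difference of Siglech between the forms was 0. Flicr, a non-coding RNA next to Foxp3, had 1.89, 2.30 and 1.56 on the Ebf1-H240A arrays and 2.25, 2.42 and 2.997 on the Ebf1wt arrays, against 3.81 and 3.45 on the Empty arrays.

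Rasgrp1, which activates Ras downstream of antigen receptors, was the gene of these 8 whose member probe overlapped. It had 2.53, 3.53 and 2.59 on the Ebf1-H240A arrays and 2.78, 2.62 and 3.23 on the Ebf1wt arrays. The Empty arrays read 3.75 and 3.33. The other Rasgrp1 probe, detected on all 8 arrays, did not overlap. That probe read 6.78 to 7.01 on the Ebf1-H240A arrays and 6.92 to 7.00 on the Ebf1wt arrays, against 7.78 and 7.81 in Empty. Ubash3a dampens T cell receptor signalling, Spn is the leukocyte sialoglycoprotein CD43, Gcsam marks germinal centre B cells and Itgb2l is a leukocyte integrin chain. Spn showed a wide spread with EBF1, at 2.48, 0.29 and 1.04 on the Ebf1-H240A arrays and 1.53, 0.50 and 2.94 on the Ebf1wt arrays, against 3.31 and 3.67 on the Empty arrays.

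Receptors, ligands and signalling proteins were 14 members. For 7 of them the member probe was detected on none of the arrays with EBF1, and 10 were without overlap. Erbb3, a receptor of the EGF-receptor family that binds neuregulins, had 1.89, 1.74 and 1.97 on the Ebf1-H240A arrays and 2.30, 1.59 and 3.70 on the Ebf1wt arrays, against 4.23 and 4.19 on the Empty arrays. Ebf1wt replicate 3 stood apart from its group there and was the single detection. Eng, the endothelial TGF-beta co-receptor endoglin, had 2.43, 2.96 and 2.63 on the Ebf1-H240A arrays and 2.68, 2.80 and 2.89 on the Ebf1wt arrays, against 3.96 and 3.81 on the Empty arrays. The narrow range of Eng with EBF1 lay close to the detection limit of these arrays.

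Pmepa1, a feedback inhibitor of TGF-beta signalling, lay lower, at 1.88, 0.95 and 0.76 on the Ebf1-H240A arrays and 0.63, 1.27 and 1.11 on the Ebf1wt arrays, against 3.80 and 3.61 on the Empty arrays. Adra2a, an adrenergic receptor, had 0.63, 0.20 and 1.06 on the Ebf1-H240A arrays and 1.78, 2.22 and 0.87 on the Ebf1wt arrays, against 3.43 and 2.80 on the Empty arrays. Gucy1a1 is a subunit of the nitric oxide receptor guanylate cyclase, and it is taken up again with its other probe. Further members of the group were the Wnt receptor Fzd2, the TNF-receptor relative Tnfrsf19, the orphan receptor Gpr158, the nicotinic receptor subunit Chrnb2, the growth factor Bmp3, the ephrin receptor Ephb6, the adhesion proteins Cntn1 and Ncam2 and the potassium channel Kcnj11. Of these, Fzd2, Tnfrsf19, Bmp3 and Kcnj11 overlapped between the groups.

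Secreted and matrix proteins were 7 members, 6 without overlap. Comp, a cartilage matrix protein, had 1.65, 2.85 and 2.04 on the Ebf1-H240A arrays and 2.51, 1.97 and 2.80 on the Ebf1wt arrays, against 4.15 and 4.17 on the Empty arrays. Lama3, a laminin chain of epithelial basement membranes, had 0.87, 1.27 and 0.54 on the Ebf1-H240A arrays and 0.33, 1.62 and 1.05 on the Ebf1wt arrays, against 3.64 and 3.86 on the Empty arrays. Another probe of Lama3 was detected on 1 Empty array and on 5 of the 6 arrays with EBF1. Its log2 difference against Empty was 0.09 for Ebf1-H240A and 0.38 for Ebf1wt, opposite to the member probe. Qsox1, a secreted sulfhydryl oxidase, was the overlapping gene, since Ebf1wt replicate 1 at 3.75 exceeded both Empty arrays at 3.62 and 3.25. The other 4 were the enamel protein Enam, the neuron-derived factor Ndnf, the pregnancy-specific glycoprotein Psg17 and the apolipoprotein Apoc4.

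Metabolic enzymes and transporters were 10 members, 9 of them without overlap. Tph1 and Ddc catalyse successive steps from tryptophan to serotonin. Tph1 had 0.50, 0.52 and 0.93 on the Ebf1-H240A arrays and 2.55, 1.67 and 1.37 on the Ebf1wt arrays, against 3.77 and 3.37 on the Empty arrays. Ddc had 1.25, 3.01 and 2.90 on the Ebf1-H240A arrays and 2.67, 1.67 and 1.51 on the Ebf1wt arrays, against 4.14 and 3.68 on the Empty arrays. Both groups with EBF1 were below Empty for the pair, with a wider spread for Ddc. Mgat3, which adds the bisecting sugar to N-glycans, had 1.34, 1.12 and 2.23 on the Ebf1-H240A arrays and 0.97, 2.24 and 1.90 on the Ebf1wt arrays, against 4.34 and 3.81 on the Empty arrays. Padi3, a protein deiminase of hair follicles, and Cyp2s1, a cytochrome P450, were at least 2.53-fold lower and at least 2.46-fold lower in Ebf1wt than in Empty. Npc1l1, the intestinal cholesterol importer, kept the weaker flag on 1 of the 6 arrays with EBF1. Slc16a10 carries aromatic amino acids, Srd5a1 reduces testosterone and Upb1 acts in pyrimidine breakdown, while the sulfotransferase Sult5a1 was the overlapping gene.

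A different kind of member was the 13 genes of cell division and RNA machinery. They serve every dividing cell: Cdca8 belongs to the chromosomal passenger complex, Cep192 to the centrosome, Tyms makes thymidylate, Dtl directs the destruction of replication factors, Xpo1 exports proteins from the nucleus, Exosc8 is part of the RNA exosome and Sap18 of a splicing-linked complex. Xpo1 had 2.51, 2.54 and 2.66 on the Ebf1-H240A arrays and 2.46, 2.16 and 2.99 on the Ebf1wt arrays, against 3.74 and 3.45 on the Empty arrays. For 12 of these 13 genes, all except Rpp25, another probe was detected on all 8 arrays.

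The remaining 46 members had no role group, and 34 of them did not overlap between groups. Their Empty means ran from 2.74 to 4.80, with a median of the group means of 2.05 in Ebf1-H240A, 2.13 in Ebf1wt and 3.23 in Empty. Rnf217, a ubiquitin ligase of the RING type, rested on a single array: it had 1.07, 1.94 and 1.76 on the Ebf1-H240A arrays and 1.96, 1.90 and 1.95 on the Ebf1wt arrays, against 7.15 and 2.46 on the Empty arrays. Esrp2, an epithelial splicing regulator, had 3.25, 1.46 and 1.32 on the Ebf1-H240A arrays and 2.38, 1.63 and 1.22 on the Ebf1wt arrays, against 4.26 and 4.06 on the Empty arrays. A second probe of Esrp2, at 3.66 on Empty replicate 1 and with means of 1.55 in Ebf1-H240A, 1.68 in Ebf1wt and 3.62 in Empty, also lost detection, and so did another of the 5 further probes of Neb.

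For 69 of the 113 genes the array held other probes, 137 in all, and they divided the members. In 44 genes the member probe was the only one. In 13 genes the other probes were detected on no array, in 14 on some arrays, and in Esrp2 and Neb another probe was lost and none was detected on all 8 arrays. In the remaining 40 genes another probe was detected on all 8 arrays. Among them, Strip2 also had another probe that lost detection, at 3.87 and 3.62 on the Empty arrays.

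In those 40 genes the difference was also measured on a probe of the same gene name that did not lose detection. It may not read the same transcript in each: for Stx3 it lies on the opposite strand, and for Igh-VJ558 it lies elsewhere on the chromosome under another accession. On the brightest such probe, the median log2 difference was -0.68 for Ebf1-H240A against Empty and -0.56 for Ebf1wt against Empty. It was called lower for 31 of the 40 in Ebf1-H240A and for 30 in Ebf1wt, where 24.9% and 22.4% of all probes detected on all 8 arrays were. A difference beyond -1 was found for 13 genes in Ebf1-H240A and for 10 in Ebf1wt, beside 2.70% and 2.14% of those probes. These probes carry the same gene names and come from the same contrasts as the flags, so they are not independent of the choice.

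**Figure D3:**
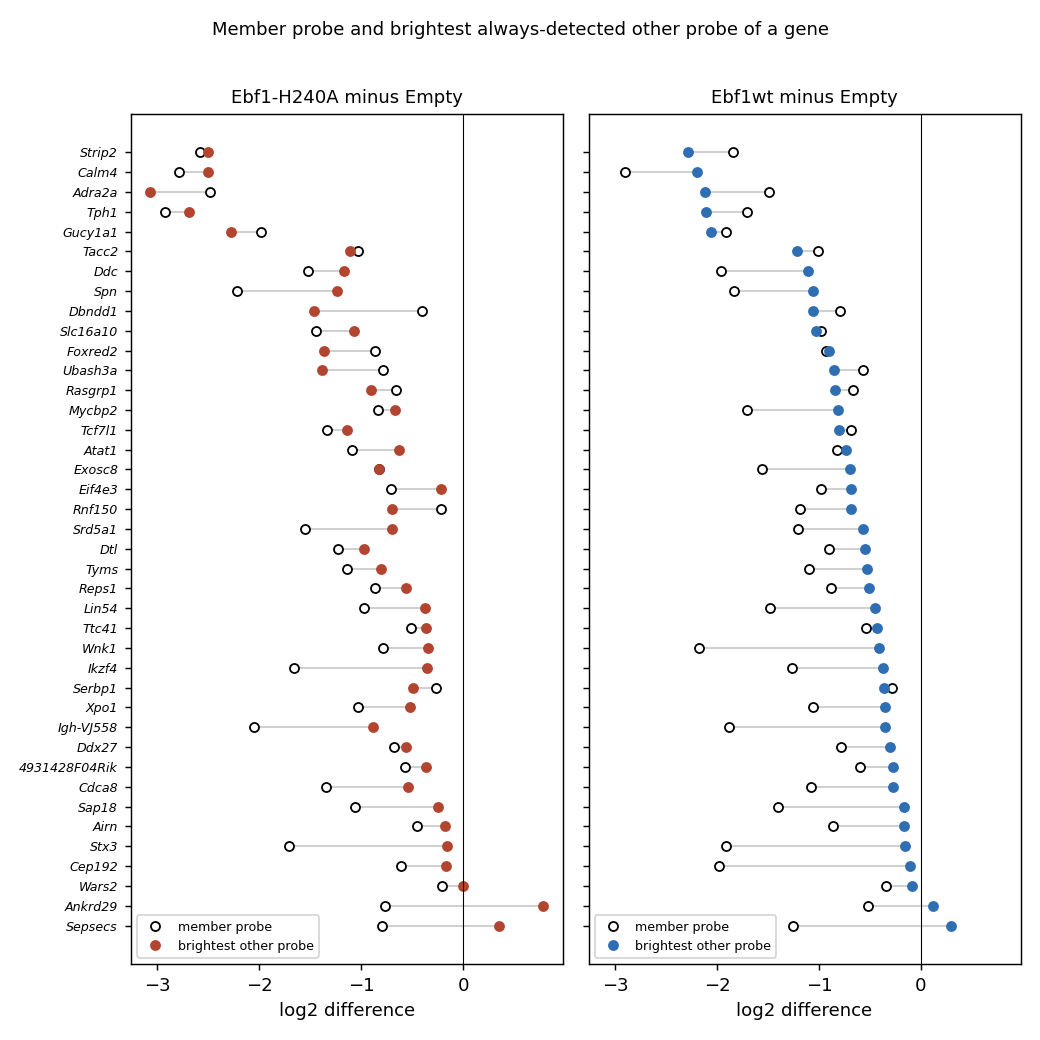
Log2 difference (x axis) of Ebf1-H240A minus Empty (left panel) and Ebf1wt minus Empty (right panel) for 40 member genes (y axis) with another probe detected on all 8 arrays. Open circles are the member probe and filled circles the brightest other probe, joined for each gene. The filled circles of Strip2, Calm4, Adra2a, Tph1 and Gucy1a1 lie beyond -2 in both panels, and those of 12 genes lie within 0.5 of 0 in both.

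At one end of this range were 5 genes whose other probe lay beyond a log2 difference of -2 with both forms of EBF1. Strip2, a scaffold of a phosphatase complex, had 5.88, 5.52 and 6.05 on the Ebf1-H240A arrays and 6.10, 5.90 and 6.13 on the Ebf1wt arrays, against 8.32 and 8.33 on the Empty arrays, on its other probe. The log2 differences were -2.51 for Ebf1-H240A and -2.28 for Ebf1wt there, beside -2.58 and -1.84 on the member probe. Gucy1a1 had 6.47, 6.58 and 6.41 on the Ebf1-H240A arrays and 6.73, 6.55 and 6.81 on the Ebf1wt arrays, against 8.76 and 8.76 on the Empty arrays. Its replicates lay within 0.3 of each other in each group, far less than the gap between groups. Tph1 had 4.70, 5.00 and 4.79 on the Ebf1-H240A arrays and 5.60, 5.16 and 5.48 on the Ebf1wt arrays, against 7.57 and 7.47 on the Empty arrays. Adra2a had 3.74, 4.04 and 3.85 on the Ebf1-H240A arrays and 4.99, 4.89 and 4.60 on the Ebf1wt arrays, against 7.00 and 6.89 on the Empty arrays. For Tph1 and Adra2a every Ebf1-H240A array also lay below every Ebf1wt array. The fifth gene, Calm4, had log2 differences of -2.50 for Ebf1-H240A and -2.19 for Ebf1wt on its other probe. Among blood cell genes, Spn had 10.84, 10.77 and 10.69 on the Ebf1-H240A arrays and 10.94, 11.01 and 10.87 on the Ebf1wt arrays, against 12.04 and 11.96 on the Empty arrays, which is tighter than on its member probe.

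In other genes the difference on the other probe was closer to 0 than on the member probe, which had been chosen for its low signal with EBF1. Cdca8 had 11.65, 11.85 and 11.76 on the Ebf1-H240A arrays and 12.07, 11.95 and 12.03 on the Ebf1wt arrays, against 12.36 and 12.22 on the Empty arrays. Its log2 difference was -0.54 for Ebf1-H240A and -0.27 for Ebf1wt on that probe, and -1.35 and -1.08 on the member probe. Sap18 had differences of -0.25 for Ebf1-H240A and -0.17 for Ebf1wt on the other probe, beside -1.06 and -1.40 on the member probe. Cep192 had -0.16 and -0.11 on the other probe and -0.61 and -1.98 on the member probe. Sepsecs, which makes selenocysteinyl-tRNA, had differences of 0.35 for Ebf1-H240A and 0.29 for Ebf1wt on its other probe. The gap between the probes of a gene was not tested.

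The detection rule did not set the forms of EBF1 against each other, since both were treated alike when the members were chosen. It did use the flags of both, and it left out probes detected on more than 1 array with EBF1. A probe clearly detected with either form was therefore not taken. The counts and the median given here describe dim probes and cannot show how often the forms differ. Of the 113 members, 4 were called lower and 1 higher in Ebf1-H240A than in Ebf1wt, where 2.21% and 3.06% of all probes were (limma, Benjamini-Hochberg over 24981 probes). In the same fit 19 of the 113 members had an unadjusted p under 0.05, beside 5404 of the 24981 probes. The median difference of the members was -0.05, beside 0.02 over all probes. Most members were not well above background in either group, so that their signals carry no fold.

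Siglech averaged 0.45 ± 0.34 in Ebf1-H240A and 1.59 ± 0.11 in Ebf1wt (SD, n = 3 each), with an adjusted p of 0.0141 in limma, and neither group was well above background on any array. Megf10 averaged 1.08 ± 0.29 in Ebf1-H240A and 2.11 ± 0.31 in Ebf1wt, with an adjusted p of 0.0315, also without detection in either. Rpp25, a subunit of RNase P and RNase MRP, had 2.37, 2.50 and 1.87 on the Ebf1-H240A arrays and 3.17, 2.88 and 3.05 on the Ebf1wt arrays, against 4.16 and 4.24 on the Empty arrays. It was detected on 1 of the 3 Ebf1wt arrays and had an adjusted p of 0.0446. 1700113H08Rik had 2.40, 2.05 and 1.87 on the Ebf1-H240A arrays and 3.66, 3.03 and 3.22 on the Ebf1wt arrays, against 3.68 and 4.11 on the Empty arrays, so its Ebf1wt and Empty arrays nearly met. It too was detected on 1 Ebf1wt array, with an adjusted p of 0.0267. Cep192 went the other way, with 2.57, 2.78 and 3.10 on the Ebf1-H240A arrays and 1.26, 1.90 and 1.19 on the Ebf1wt arrays, an adjusted p of 0.0183 and detection on 1 Ebf1-H240A array. On its other probe the arrays ran from 8.62 to 8.75 in Ebf1-H240A and from 8.68 to 8.80 in Ebf1wt.

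**Figure D4:**
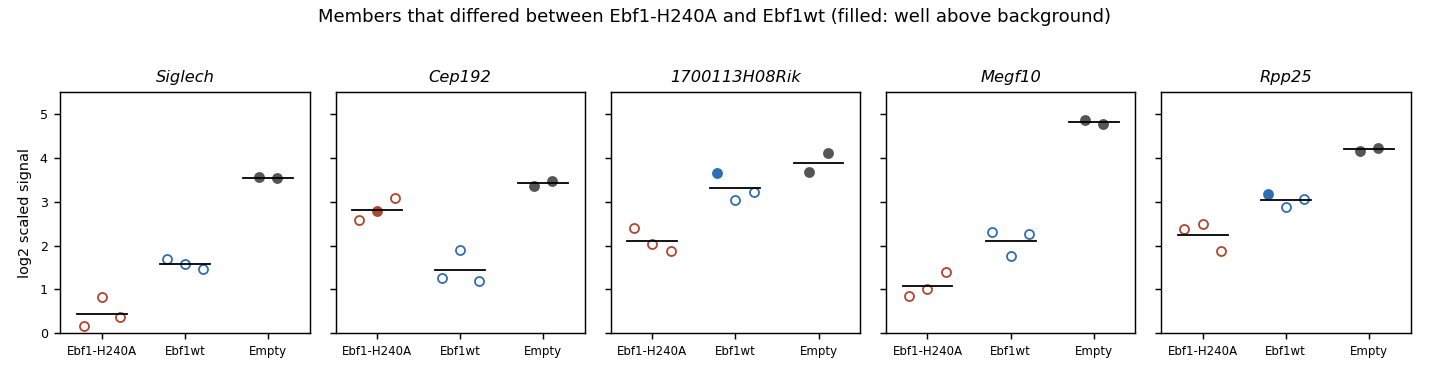
Log2 scaled signal (y axis) of the 5 members called between Ebf1-H240A and Ebf1wt, by group (x axis), a point per array and a line at each group mean, with filled points where the probe was called well above background. In each panel the 3 Ebf1-H240A points do not overlap the 3 Ebf1wt points, and at most 1 point of the EBF1 groups is filled.

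These 5 calls were not stable. With the slide as a block Siglech, Megf10 and Cep192 were called, and within slide 1 or within slide 2 the count was 0, with log2 differences of -1.09 and -1.22 for Siglech, -0.83 and -0.89 for Megf10, and 0.77 and 1.87 for Cep192. Rpp25 had -0.45 within slide 1 and -1.24 within slide 2, and 1700113H08Rik -0.81 and -1.58. Leaving out any 1 of the 8 arrays gave 1 to 3 called members. Siglech lost its call without Ebf1wt replicate 1, Ebf1wt replicate 2 or Ebf1-H240A replicate 3, and Cep192 without Ebf1wt replicate 1 or Ebf1-H240A replicate 3. Among these fits Rpp25 was called only without Ebf1-H240A replicate 2, Megf10 only without Ebf1wt replicate 2 or Ebf1-H240A replicate 3, and 1700113H08Rik only without either Empty array or Ebf1-H240A replicate 1. With normexp background correction the difference was -0.02 for Siglech and 0.02 for Megf10, and no member was called.

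The lists of cell type genes held few members. The striated muscle and calcium list (32 genes) held Casq2, Ampd1 and Megf10, while the dendritic cell list (24 genes) held Siglech, the stem and progenitor list (35 genes) Tal1 and the endothelial list (19 genes) Eng. The lists for T and innate lymphoid, myeloid, mast, erythroid and megakaryocyte, B lineage, hepatocyte and stromal feeder cells held 0 members. The log2 sum of the muscle list ran the other way from its 3 members, at 14.39 to 14.51 on the Ebf1-H240A arrays and 13.96 to 14.15 on the Ebf1wt arrays, against 13.12 and 12.92 on the Empty arrays.

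Markers of the labelled progenitors were present. Kit lay at 9.29 to 9.63 on the Ebf1-H240A arrays and 9.76 to 9.85 on the Ebf1wt arrays, against 10.57 and 10.64 on the Empty arrays, and Cd34 and Flt3 were detected on all 8 arrays. The hepatocyte genes Alb, Afp, Apoa1 and Ttr were not detected on any array. Of the endothelial genes, Cdh5 was detected on no array and Tek on Ebf1wt replicate 1 alone, while Pecam1, which blood cells also express, was detected on all 8 arrays, at 8.73 to 8.84 in Ebf1-H240A and 8.91 to 8.99 in Ebf1wt, against 8.79 and 8.80 in Empty. Transcripts of stromal cells were present throughout: Pdgfrb lay at 10.46 to 10.69 on the Ebf1-H240A arrays and 10.09 to 10.23 on the Ebf1wt arrays, against 8.58 and 8.69 on the Empty arrays, and Col1a1, Col1a2 and Col3a1 were detected on all 8. The summed stromal list lay at 15.60 to 15.68 on the Ebf1-H240A arrays and 15.59 to 15.82 on the Ebf1wt arrays, against 15.80 and 15.81 on the Empty arrays. All 3 Ebf1-H240A sums lay below both Empty sums, and the Ebf1wt sums overlapped Empty through replicate 3. The median of that list ran the other way, at 4.80 to 5.12 on the Ebf1-H240A arrays, against 4.49 and 4.01 on the Empty arrays. On the Ebf1wt arrays this median was 4.50 to 5.20. Like Pdgfrb, Col1a1, Col1a2 and Col3a1 lay above both Empty arrays on every Ebf1-H240A array. Col1a1 read 5.26 to 5.44 there, against 4.37 and 4.00 on the Empty arrays. The part of feeder cell RNA in the members' values was not tested. The summed B-lineage list lay at 15.38 to 15.50 on the Ebf1-H240A arrays and 16.09 to 16.24 on the Ebf1wt arrays, against 13.72 and 13.74 on the Empty arrays. The Ebf1 probe itself read 10.15 to 10.44 on the Ebf1-H240A arrays and 10.17 to 10.19 on the Ebf1wt arrays, against 10.10 and 10.19 on the Empty arrays. Whether it reads the supplied cDNA is not stated, so it does not check the labels.

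Members were spread over the chromosomes, with at most 11 on chromosome 7, or 9.73% of them, where 8.40% of the named genes lie. In the order of the RefSeq gene table (GRCm38.p6), Ankrd29 and Lama3 were next to each other, Erbb3 and Ikzf4 had 1 protein-coding gene between them, and Ttc41 and 1700113H08Rik had 2. The member probes had a median GC content of 41.7%, equal to that of kept probes with an Empty signal in the same range and close to the 43.3% of all kept probes. Of the 113 genes 105 were protein coding and 5 were long non-coding RNAs.

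RefSeq promoters (GRCm38.p6, from 250 bases before to 50 after the start site) were at hand for 80 of the member genes, with 98 promoters in all. The EBF core CCCNNGGG, which reads the same on both strands, was in 16 of them, or 16.3%, beside 13.7% of all 32851 promoters. The core with a T before it and an A after it, the full palindrome, was in 0 of the 98, beside 0.904%. Searched on both strands, the RUNX motif TGTGGT was in 14.3% beside 16.8%. The motif AGATAA bound by GATA factors was in 11.2% beside 11.2%, and the E box CACGTG in 10.2% beside 7.15%. The upstream 250 bases of Gucy1a1 and Siglech are shown because these genes lay well below Empty with both forms of EBF1 and hold the core. Capitals mark it, at position -82 and at position -246 from the start site.
Gucy1a1, chr3:82145074-82145323, minus strand: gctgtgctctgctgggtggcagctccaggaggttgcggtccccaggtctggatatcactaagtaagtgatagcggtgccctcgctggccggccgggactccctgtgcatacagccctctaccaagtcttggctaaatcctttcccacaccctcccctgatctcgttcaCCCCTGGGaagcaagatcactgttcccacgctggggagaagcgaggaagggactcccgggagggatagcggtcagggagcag
Siglech, chr7:55767934-55768183, plus strand: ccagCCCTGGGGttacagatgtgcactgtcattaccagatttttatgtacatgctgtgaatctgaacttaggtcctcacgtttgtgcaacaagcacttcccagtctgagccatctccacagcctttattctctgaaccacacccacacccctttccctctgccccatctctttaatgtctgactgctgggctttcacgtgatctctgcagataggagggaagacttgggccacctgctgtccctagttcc
A match is a description of the letters and not a binding site, and no binding was measured here.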

How the data were processed

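Per the submitters' processing notes, scans were read with Agilent Feature Extraction 10.5.1.1. The deposited processed signal is, per the file headers, a linear intensity with the spatial trend taken out, and the array annotation is mm9. Other deposited columns hold flags of 0 or 1, given here as flags and not as a score. The authors' value table holds log2 values with a normalization that the sources used here do not give, and it served as an alternative only.

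Non-control spots (43379 an array) were scaled to a common 75th percentile, values under 1 were set to 1, outlier spots dropped and a probe's spots averaged, giving 41174 probes. Each array had 54.6% to 59.6% of its probes well above background and 0 saturated spots. Flags of repeated spots were averaged and called at 0.5. Where several probes of a gene passed, the one with the highest mean Empty signal stands for it. Symbols were updated through the RefSeq gene table of GRCm38.p6, by accession for 83 members, symbol for 25 and older symbol for 2, while 3 kept the name in the files.

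Tests (two-sided) were fitted in R 4.3.3 by lmFit and eBayes of limma 3.58.1, on probes detected by 2 or more of the 8 arrays. That left 24981 probes, after 24 without a value on some array were dropped, with 5 residual and 1.94 prior degrees of freedom. On simulated data for Ebf1-H240A against Ebf1wt over 24981 probes, 91% of 200 probes changed by 2 on the log2 scale were recovered, and 6.19% of the calls were false. For a bound, each array of the dimmer group gives its lowest detected signal, or the probe's own where that is higher, and their mean is set against the brighter group's mean. Bounds hold for this processing only. The number of arrays limits the precision.

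The members and lists were chosen with earlier results of these data known, and role groups were assigned after the member names were known. Genes are named by the highest Empty signal, the largest bound, list membership, a call between the EBF1 forms, the edge of the rule, or a role. The slide (4 arrays each, both holding all 3 groups) was used as a block. Deviations of samples with the same replicate number had r from -0.28 to 0.15 over 7 pairs. The deviations of the 2 Empty arrays mirror each other, so these values are not independent and cannot settle pairing. The main fit did not pair the samples, and the replicate block is an alternative.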

Additional observations from a re-analysis of the deposited data

Results flagged for a closer look

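For 5 members the difference from Empty was unlike in the groups with EBF1, by limma's test of Ebf1-H240A against Ebf1wt. That was 4 lower and 1 higher in Ebf1-H240A, where 2.21% and 3.06% of all 24981 probes were. The detection rule had left out probes detected on more than 1 array with EBF1, so this count cannot show how often the forms differ. Siglech had an adjusted p of 0.0141 and a log2 difference of -1.14 ± 0.16 (SE), with every Ebf1-H240A array below every Ebf1wt array, although no array of either group was well above background. Cep192 had an adjusted p of 0.0183 and a log2 difference of 1.37 ± 0.21, higher in 3 of 3 Ebf1-H240A arrays. On the brightest Cep192 probe detected on all 8 arrays, the difference was -0.06, with a limma adjusted p of 0.664. The differences of 1700113H08Rik, Megf10 and Rpp25 were -1.20, -1.03 and -0.79, with adjusted p of 0.0267, 0.0315 and 0.0446. The tables give the range of each over its alternatives: adjusted p from 0.00680 to 1 for Siglech, 0.0145 to 0.674 for Cep192, 0.0193 to 0.785 for 1700113H08Rik, 0.0239 to 0.990 for Megf10 and 0.0267 to 0.993 for Rpp25. The groups of 2 and 3 arrays are too small for a check of single outlying arrays.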

How the results depend on the processing

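Signal over background limits these results: the members' Empty means came to at most 33.5 intensity units, and normexp correction adds an offset of 50. With normexp, 3 members were called lower in Ebf1-H240A and 3 in Ebf1wt than in Empty (Casq2, Ampd1 and Megf10 in both). Of all 24981 probes, 3674 and 3182 were called lower. Median log2 differences of the members were -0.013 and -0.057. Between the EBF1 forms 0 members were called, beside 515 probes higher and 408 lower in Ebf1-H240A. Among named members whose difference against Empty was called lower in the main fit, some differences turned positive with normexp. These were Cdca8 (0.012), Chrnb2 (0.060 in Ebf1-H240A, 0.021 in Ebf1wt), Eif4e3 (0.027), Exosc8 (0.038), Flicr (0.012), Foxn1 (0.021), Ndnf (0.017), Ubash3a (0.083 in Ebf1-H240A, 0.062 in Ebf1wt), Unc45b (0.036) and Xpo1 (0.0011 in Ebf1wt). The difference of Megf10 between the forms also turned positive (0.018). Sign changes of differences that were not called, or of members not named, are not listed.

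The number of members was 59 with detection on none of the 6 arrays, 178 with at most 2, 177 with the positive and significant flag (2 of the same probes), 63 when the gene's brightest probe had to pass itself, and 116 to 705 with an array left out. The 705 were found without Empty replicate 1, and 206 without Empty replicate 2. Median differences were -0.55 for Ebf1-H240A and -0.53 for Ebf1wt with the value table, -1.15 and -1.08 with values under 4 set to 4, and -1.62 for Ebf1-H240A with 1 probe per gene. Members called lower numbered 43 and 39 with 1 probe per gene, where 64 were tested, 23 and 3 within slide 1, and 10 and 13 within slide 2. With an array left out they were 41 to 73 and 35 to 70, with medians from -1.55 to -1.28 and from -1.44 to -1.17.

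Between the forms, 1 member was called with the value table, 1 without a filter on dim probes, 3 with values under 4 set to 4, 3 with the slide as a block, 3 with only the groups compared, 0 within slide 1, 0 within slide 2 and 1 to 3 with an array left out. With the replicate block, 0 members were called, beside 277 probes higher and 202 lower in Ebf1-H240A, and Siglech had a limma adjusted p of 0.0529. Members called lower than in Empty were 61 and 62 there, where 4420 and 3646 of 24981 probes were. Beyond normexp, the cause of these shifts was not tested. Quantile normalization and keeping outlier spots left all 3 counts within 1.5 times.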
